A study of Caenorhabditis elegans with 4 samples.

Results

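The sites described here are the MRE-11 peaks of chromosome III in Caenorhabditis elegans, 2116 of the 11476 peaks in the whole-series list. They were taken by their chromosome name, and III was chosen as the chromosome with the most peaks per Mb. Of these peaks 860 were reproducible, meaning that they were overlapped by at least 1 bp by a peak of each replicate list. MRE-11 was mapped by ChIP-seq (chromatin immunoprecipitation and sequencing), which recovers the DNA that was crosslinked to a protein and counts where its fragments align. The worms were fem-2(b245) hermaphrodites at the young adult stage with a germline, kept at 20 degrees Celsius. There were 2 ChIP libraries, made with an affinity-purified polyclonal rabbit antibody, and 2 input libraries, which were not analysed here. All of them carried the fem-2 allele, and the genotype label places that gene on III, the chromosome described here. No library of another strain was set beside them. Per the labels' growth protocol gravid adults were harvested by sucrose flotation. Whole worms were ground, so the peaks mix germline and somatic nuclei. Nothing in the labels says that the replicates came from separate cultures.

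MRE-11 is a nuclease that works with RAD-50. The complex binds broken DNA ends, trims them and starts their repair, and in the worm it is also needed for the programmed breaks of meiosis. The chromosomes of C. elegans are holocentric: kinetochores form along their whole length, so III has no single centromere. Its arms recombine more often in meiosis than its gene-rich centre, and its left end carries the pairing centre, which the zinc finger protein ZIM-1 binds to bring homologues together. FEM-2 is a protein phosphatase of the sex determination pathway, needed for male development and for sperm.

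Chromosome III had more MRE-11 sites per megabase than any other chromosome in each of the lists. It held 62.4 reproducible peaks per Mb, against 38.0 per Mb on the other 5 nuclear chromosomes together, 1.64 times as many. In the replicate 1 list III had 792 peaks, 57.5 per Mb, against 39.5 per Mb elsewhere (1.45 times). In the replicate 2 list it had 1147 peaks, 83.2 per Mb, against 53.8 per Mb elsewhere (1.55 times). The excess over the other chromosomes was thus present in both libraries, and it was larger than the gap between these 2 ratios. Over every whole-series peak the ratio was 1.42. Since III was chosen as the densest, its rank is not independent of that choice, and lists of the same series add no independent support. Chromosome I came closest, with 53.3 reproducible peaks per Mb, 49.7 in replicate 1 and 78.4 in replicate 2, so that III exceeded it by 1.17, 1.16 and 1.06 times. Counted as covered sequence, peaks took up 9.63% of III in replicate 1, against 6.46% of the other chromosomes. In replicate 2 they took up 7.48% of III, against 4.85% of the others. No p-value is given for this or any later comparison, because 1 group of 2 libraries allows no test between groups and because peaks, bins and chromosomes are not replicates.

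III was also denser when whole-series peaks that share a replicate peak were counted once. The 860 reproducible peaks lay in 656 distinct replicate 1 peaks and 758 distinct replicate 2 peaks, or 1.31 and 1.13 for each, against 1.24 and 1.10 on the other chromosomes. When overlapping peaks of the 3 lists were joined, III had 651 loci with a peak of each replicate, 47.2 per Mb, against 30.6 per Mb elsewhere, which is 1.54 times as many.

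A larger share of the peaks of III was found in both replicates. Of its 2116 peaks 40.6% were reproducible (95% Wilson interval 38.6% to 42.8%), against 35.1% on the other 5 chromosomes (34.2% to 36.1%) and 36.1% over all 6. The intervals cover counting error only and treat neighbouring peaks as independent. Replicate 1 peaks also covered more of III than of the others (9.63% against 6.46%), as did replicate 2 peaks (7.48% against 4.85%). Since 1 bp of overlap was enough, denser coverage raises the share, and no correction was made for it. The shares on IV, 38.3%, and on I, 37.8%, lay close to that of III, and their intervals overlapped with it. Peaks in neither replicate list made up 25.1% of III (23.3% to 27.0%), against 31.1% elsewhere (30.1% to 32.0%). On III 318 peaks were in replicate 1 only (15.0%) and 407 in replicate 2 only (19.2%). These shares were near those elsewhere, 16.2% and 17.6%, and over all 6 chromosomes, 16.0% and 17.9%. Seen from the replicates, 659 of the 792 replicate 1 peaks of III were overlapped by replicate 2 (83.2%, 80.4% to 85.7%), against 78.0% elsewhere and 78.9% over all chromosomes. The shares on I (84.1%) and on IV (83.2%) were as high as that of III. Of the replicate 2 peaks of III 68.0% were overlapped by replicate 1, against 66.4% elsewhere, 66.7% over all and 82.9% on X.

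Along III the reproducible sites were spread evenly between arms and centre, with the arms taken as the outer 25% at each end. The left arm had 212 peaks (61.5 per Mb), the centre 432 (62.7 per Mb) and the right arm 216 (62.7 per Mb). The densest of these regions exceeded the sparsest by 1.02 times, whereas on the other chromosomes this ratio ran from 1.18 on IV to 2.16 on II. Chromosome I, the nearest in overall density, had 63.2 per Mb in its left arm and 34.8 in its right arm. The replicate 1 list was nearly as even on III, with 55.7, 57.7 and 58.6 peaks per Mb in the left arm, centre and right arm. The replicate 2 list was less so, with 73.1, 88.5 and 82.7 per Mb and a ratio of 1.21, which was still the lowest of the 6 chromosomes in that list. In the whole-series list the ratio was 1.11 on III and 1.10 on X. The arms together held 49.8% of the reproducible peaks of III (46.4% to 53.1%), against 46.6% on the other chromosomes (44.9% to 48.3%), and the intervals overlap.

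**Figure D1:**
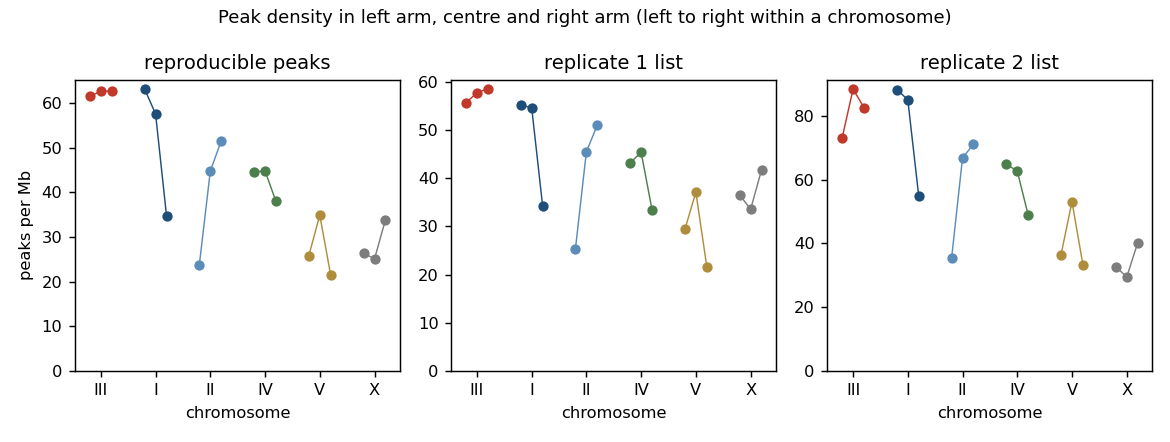
Peaks per Mb (vertical axis) for each chromosome, with 3 points for its left arm, centre and right arm in that order, in the reproducible peaks and in the list of each replicate. The 3 points of III lie almost level among the reproducible peaks, at 61.5, 62.7 and 62.7 per Mb, and the left arm is lower in replicate 2.

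The replicates did not differ alike in the regions of III. In the left arm 74 whole-series peaks were in replicate 1 only and 64 in replicate 2 only, whereas in the centre the counts were 161 and 244, and in the right arm 83 and 99. Regions differed elsewhere too, with 73 and 74 in the left arm of V and 36 and 69 in its right arm. On the other autosomes replicate 2 only was the larger in every region, closely so in the left arms of V and II (46 and 51). On X replicate 1 only was the larger in every region. Replicate 2 had more peaks than replicate 1 over the genome (5799 against 4212) and in each region of III. The left arm of III gained the fewest, with 252 against 192. The centre had 610 against 398 and the right arm 285 against 202. What set the libraries apart in these regions was not tested.

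In bins of about 1 Mb, III was dense nearly throughout. Its 14 bins averaged 62.4 ± 13.8 reproducible peaks per Mb (SD over bins), with a median of 63.5, against a median of 36.0 over the 86 bins of the other chromosomes. Of the 14 bins 13 were above that median, and 11 were above the 90th percentile of the other bins, 58.6 per Mb. The exception was the first bin, from 1 to 984551, with 30 peaks. It was also the lowest in replicate 1 (35 peaks) and in replicate 2 (46 peaks). The highest was its neighbour from 984552 to 1969103, with 83 reproducible peaks, 71 in replicate 1 and 87 in replicate 2. A second low bin lay in the right arm, from 10830069 to 11814619, with 40 reproducible peaks, 43 in replicate 1 and 66 in replicate 2.

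The ends of III were unlike each other. The outermost 0.5 Mb held 14 reproducible peaks on the left and 47 on the right. The ends of the other chromosomes held between 14, on the left of V, and 36, on the left of I. The same order was seen in replicate 1, with 18 peaks on the left and 37 on the right, and in replicate 2, with 26 and 57. The first reproducible peak, from 1 to 559, began at the first base of III and had a low score of 10.43. The last, from 13770738 to 13771450, had a score of 85.41. The scores are the authors' own, their scale is not stated in the files, and they are used here only to rank peaks within a list. The pairing centre of III is at its left end, but no site was tied to it.

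**Figure D2:**
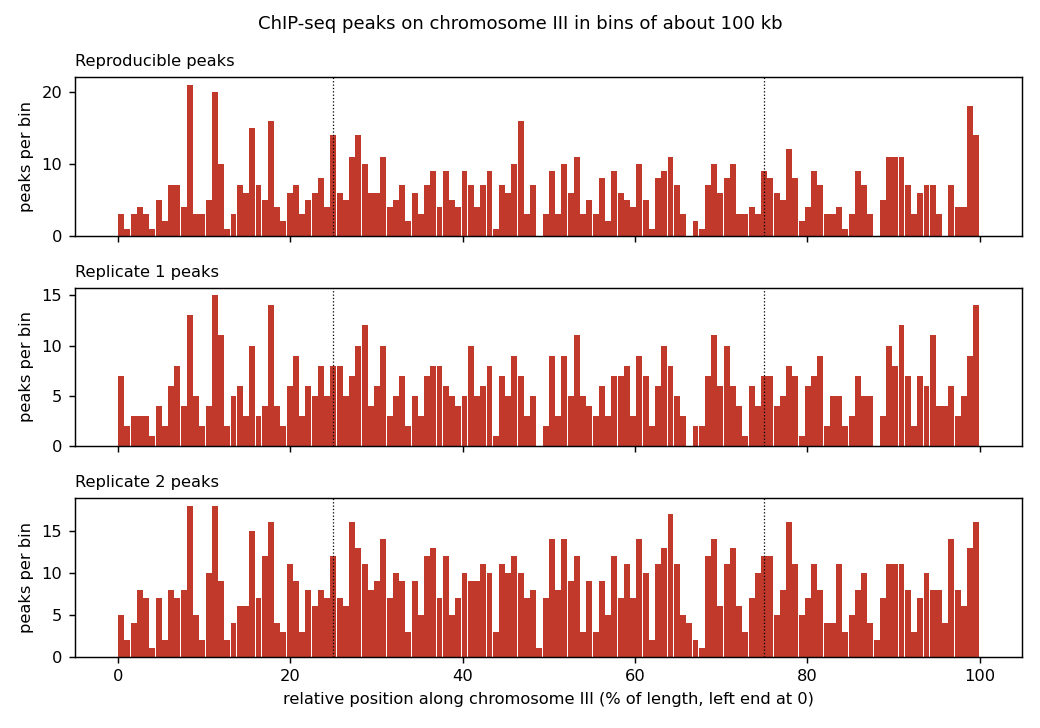
Number of peaks (vertical axis) in each of 138 bins of about 100 kb against relative position along III (horizontal axis, percent of its length), for the reproducible peaks and for each replicate list, with dotted lines at the limits of the arms. The highest bin holds 21 reproducible peaks, 4 bins hold 0, and the bin counts of the replicates have a Pearson r of 0.78.

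At a scale of 100 kb the peak counts of III were uneven, as were those of each other chromosome. The 138 bins had a median of 6 reproducible peaks and a highest count of 21, against a median of 3 and a highest count of 19 in the 865 bins elsewhere. Bins with 10 or more peaks made up 17.4% of III (24 bins) and 4.51% of the other chromosomes (39 bins). A higher density by itself raises this share. The 10% of bins with the most peaks held 23.7% of the reproducible peaks of III. On the other chromosomes this share ran from 22.9% on I to 28.6% on X. The variance of the counts was 2.55 times their mean on III and between 1.88 and 2.25 times on each other chromosome. This order did not hold in the replicate lists, where the ratio on III was 1.65 in replicate 1, against 1.77 on I, and 1.87 in replicate 2, against 2.47 on I. Nor did it hold over every whole-series peak, with 2.95 on III, 3.38 on I, 3.27 on IV and 3.19 on V. The peak counts of the replicates followed each other over the 138 bins, at r = 0.78 (Pearson) and rho = 0.78 (Spearman), with r between 0.70 and 0.82 on the other chromosomes. Bins share their libraries and are not replicates.

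The 5 densest bins lay in both arms and in the centre. The bin from 1098703 to 1198584 had 21 reproducible peaks, and that from 1498231 to 1598112 had 20. The third, from 13583959 to 13683840 near the right end, had 18, and its peaks were weak, at a median of the 8.67th percentile of score among all reproducible peaks. The bins from 2397170 to 2497051 and from 6392452 to 6492333 had 16 each. None of these 5 bins held a peak of the maximum score. Reproducible peaks were missing from 4 bins, 2.90% of the 138 bins of III, against 9.83% of the bins elsewhere and 5.30% of those on I. The bin from 6692098 to 6791979 had 0 replicate 1 peaks and 1 replicate 2 peak, and that from 9089267 to 9189148 had 0 and 4. The bin from 12085729 to 12185610 had 0 and 2. The bin from 13184431 to 13284312 differed from these, since it had 4 peaks in each replicate list and 19 in the whole-series list, but none that both replicates overlapped.

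Neighbouring sites were closer on III than on any other chromosome, by median gap. III was chosen for its density, and more peaks per Mb leave shorter gaps, so this is not a separate trait. The median gap between reproducible peaks, from the end of a peak to the start of the next, was 5525 bp on III (quartiles 666.5 and 19766.5 bp), against 10351.5 bp elsewhere. On I, the nearest, it was 7431.5 bp. In replicate 1 the median gap was 7670 bp on III and 12144 bp elsewhere, and in replicate 2 it was 4406 bp on III and 6671 bp elsewhere. Both ends of the distribution moved. Gaps of up to 1000 bp made up 29.6% of the gaps on III (95% Wilson interval 26.6% to 32.7%), against 23.1% elsewhere (21.7% to 24.6%). Gaps over 50000 bp made up 7.33% on III (5.77% to 9.27%), against 16.5% elsewhere (15.3% to 17.8%), and took up 36.5% of the length of III, against 59.0% of the other chromosomes. The gaps over 50000 bp were rarer on III in both replicates as well, at 5.94% against 14.2% in replicate 1 and 3.23% against 9.27% in replicate 2. Chromosome I was nearer to III, with 9.73% of reproducible gaps, 9.76% in replicate 1 and 4.06% in replicate 2. The last lay within the interval of III in replicate 2 (2.35% to 4.42%). Over every whole-series peak the share was 1.04% on III and on I. For the short gaps the replicates showed less, 16.2% against 13.6% in replicate 1, where the intervals overlap, and 22.6% against 19.1% in replicate 2, where they just overlap.

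**Figure D3:**
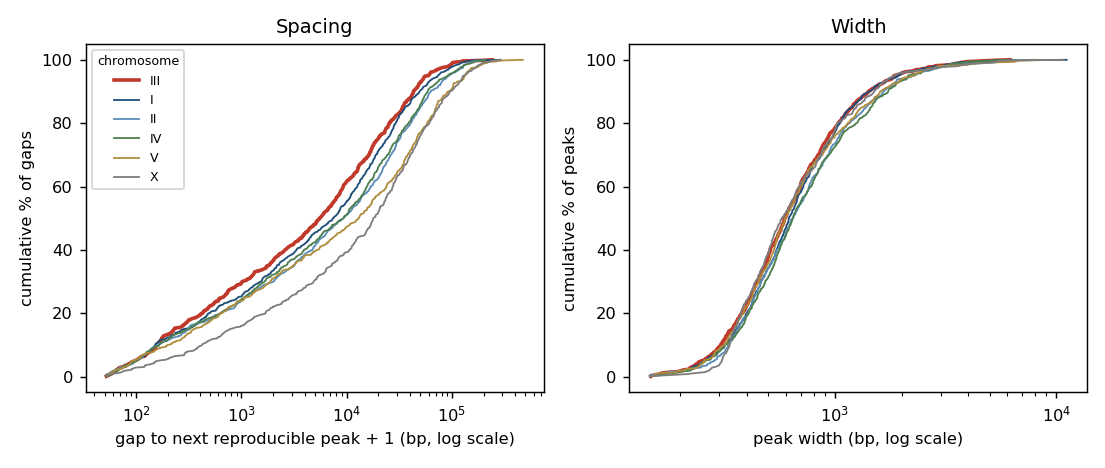
Cumulative percent of the gaps between reproducible peaks (left) and of the widths of these peaks (right), in bp on log axes, with 1 line for each chromosome. The line of III lies left of the others in the gaps, with a median of 5525 bp, while the widths of all 6 chromosomes nearly coincide.

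More separate sites, rather than more peaks at each, made up most of the excess of III. Peaks within 2000 bp of each other were joined to a site. On III there were 39.6 sites per Mb, against 26.5 elsewhere (1.49 times), and 1.57 reproducible peaks in each, against 1.43 elsewhere (1.10 times). In replicate 1 the same 2 ratios were 1.37 and 1.06, and in replicate 2 they were 1.46 and 1.06. Of the reproducible peaks of III 57.6% had a neighbour within 2000 bp (54.2% to 60.8%), against 49.9% elsewhere (48.2% to 51.7%) and 51.5% over all chromosomes. On I the share was 55.4%, within the interval of III. Many such neighbours were parts of 1 wide replicate 1 peak: of the 314 neighbouring pairs on III, 203 (64.6%) shared their replicate 1 peak and 102 (32.5%) their replicate 2 peak, against 63.1% and 29.7% elsewhere.

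Among the reproducible peaks and in both replicate lists the left arm of III was the most clustered of its regions, though it was no denser. There 65.1% of the reproducible peaks had a neighbour within 2000 bp, against 53.0% in the centre and 58.3% in the right arm. The same region led in replicate 1 (54.2%, 38.9% and 41.1%) and in replicate 2 (61.9%, 52.0% and 52.3%). Over every whole-series peak the right arm led instead, at 74.9%, against 72.6% in the left arm and 68.7% in the centre. On I too the left arm was the most clustered region, at 65.1% of reproducible peaks, 47.1% in replicate 1 and 63.7% in replicate 2. The median gap on III was 3478 bp in the left arm, 7183 bp in the centre and 5237 bp in the right arm. The upper quartile of the gaps ran otherwise, at 21748.5, 18539.5 and 20624 bp, so that the left arm had the shortest median gap and the longest upper quartile. In replicate 2 the median gaps of the regions were nearly equal, at 4332, 4545 and 4360 bp. Over every whole-series peak they were 1801, 2292 and 1753 bp, shortest in the right arm.

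Most sites of III were single peaks, and the 3 clusters of 7 or more lay in the arms. There were 365 single peaks, 107 pairs, 42 sites of 3 peaks, 21 of 4 peaks and 11 of more than 4. The largest cluster, from 2095129 to 2115948, had 13 reproducible peaks in 20820 bp, and 51.7% of its span was covered. Among reproducible peaks the largest cluster elsewhere had 9, on V, but over every whole-series peak the order turned, with 16 peaks in the largest cluster of III and 21 in that of I. Replicate 1 had 7 peaks there, of up to 4718 bp, and replicate 2 had 13. Its scores ran from 13.22 to 158.31, and the gaps inside it from 122 to 1980 bp. It stood 12510 bp to the right of the third widest peak of III, from 2077583 to 2082618 (5036 bp), which itself followed the fourth longest gap, 126168 bp without a reproducible site.

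The other large clusters were smaller and differed in score. The cluster from 1180071 to 1188883 had 7 peaks with scores between 12.79 and 132.81, within the densest bin of 100 kb. The cluster from 13590507 to 13598922, near the right end, also had 7, but all were weak, with scores of 6.30 to 12.11. They covered 82.1% of its span and lay in 2 replicate 1 peaks and 3 replicate 2 peaks. The cluster from 2208423 to 2216825 had 6 peaks with scores of 42.63 to 80.54, and that from 12366899 to 12373086 had 6 with scores of 4.23 to 71.25. These last were the longest by span of 4 clusters of 6 peaks. Clustered peaks as a whole ranked lower than single ones on III, at a median of the 45.9th percentile of score (495 peaks) and the 55.4th (365 peaks), and were narrower, at 586 and 634 bp. The replicate 1 peaks under them were wider, at 2014 and 1197 bp.

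The longest gaps of III were spread over the chromosome, 4 in the centre, 3 in the left arm and 3 in the right arm. The longest ran from 6628202 to 6870991, 242790 bp in the middle of III. It held 11 whole-series peaks, 0 of replicate 1 and 3 of replicate 2. The next, from 12006168 to 12218466 (212299 bp), held 1 replicate 1 peak and 2 replicate 2 peaks. The third, from 9055143 to 9228162 (173020 bp), was flanked by strong peaks with scores of 130.80 and 119.08 and held 0 and 5. Then came the gap from 1951415 to 2077582 beside the largest cluster, with 0 replicate 1 peaks and 1 replicate 2 peak, and that from 472580 to 598098 (125519 bp), with 0 and 2.

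The other 5 of the 10 longest gaps were between 100405 and 123045 bp long. The gap from 13169870 to 13292914 was the least empty, with 5 peaks in each replicate list and 23 in the whole-series list. That from 12714149 to 12815599 was the emptiest, with 1 whole-series peak and 0 in either replicate. The others ran from 5728294 to 5839209, from 9290129 to 9393214 and from 87644 to 188048. Together the 10 gaps made up 10.3% of III. They held 7.05 replicate 1 peaks and 16.9 replicate 2 peaks per Mb, against 57.5 and 83.2 per Mb over the whole of III, and 64.8 whole-series peaks per Mb, against 154 per Mb. The gaps were defined by the absence of peaks that both replicates share, so a low count of replicate peaks in them follows from how they were chosen.

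In width the sites of III were not unusual. The reproducible peaks had a median of 592.5 bp (quartiles 414.75 and 921.75 bp), against 622 bp elsewhere. In replicate 1 the medians were 1302.5 bp on III and 1261 bp elsewhere, and in replicate 2 they were 683 and 659 bp, so the small difference ran in opposite directions in the reproducible peaks and in the replicate lists. Peaks of at least 1500 bp numbered 77 among the reproducible peaks of III, 8.95% of them (7.22% to 11.05%), against 11.5% elsewhere (10.5% to 12.7%). The lower share was not seen in the replicate lists, with 38.8% against 36.4% in replicate 1 and 10.3% against 10.4% in replicate 2.

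Within III the peaks of the centre were the widest and those of the left arm the narrowest, in each list. The reproducible peaks had median widths of 510 bp in the left arm, 662 bp in the centre and 589 bp in the right arm. In replicate 1 these were 1226.5, 1337 and 1278.5 bp, and in replicate 2 they were 605, 719.5 and 657 bp. Centre peaks were thus 1.18 times as wide as arm peaks among the reproducible ones, 1.08 times in replicate 1 and 1.13 times in replicate 2. On the other chromosomes the same ratio lay between 0.89 on X and 1.09 on V for the reproducible peaks, but in replicate 1 V, at 1.15, and II, at 1.09, had a larger one than III.

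The 5 widest peaks of III did not have the highest score, although width and score rose together in general. Over the 860 reproducible peaks of III their Spearman rho was 0.45, against 0.54 elsewhere. The median width was 469.5 bp in the lowest quintile of score and 1162 bp in the highest. The widest peak ran from 2497016 to 2503206 (6191 bp, score 90.90), and the second from 5938623 to 5944005 (5383 bp, score 114.61). Both had a score of 3100 in each replicate list, a value that many strong replicate peaks share. The third, from 2077583 to 2082618, had the low score of 24.04 in the whole-series list, while its scores of 2079.47 in replicate 1 and 1014.35 in replicate 2 were at the 87.5th and 80.9th percentile of those lists. The fourth, from 10807135 to 10811701 (4567 bp, score 70.58), measured 2397 bp in the replicate 1 list and 4929 bp in the replicate 2 list. The fifth ran from 8443582 to 8447855 (4274 bp, score 157.96).

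Among the reproducible peaks the excess of sites on III was largest at middle and upper-middle scores and smallest at the top. When the 4147 reproducible peaks of the genome were divided into quintiles by score, III had 12.2, 12.4, 13.6, 13.8 and 10.4 peaks per Mb from the lowest to the highest. These were 1.59, 1.63, 1.84, 1.87 and 1.31 times the densities elsewhere. In the first 4 quintiles III was the densest chromosome, and in the highest it ranked below IV (10.7 per Mb) and I (10.5 per Mb). In replicate 1 the ratios were 1.24, 1.48, 1.49, 1.69 and 1.37, the smallest being that of the lowest quintile, and III led in each. In replicate 2 they were 1.34, 1.36, 1.89, 1.89 and 1.29, and III was second to I in the second and in the highest quintile. The drop from the fourth quintile to the fifth was thus seen in both replicates, although the rank of III at the top was not the same.

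**Figure D4:**
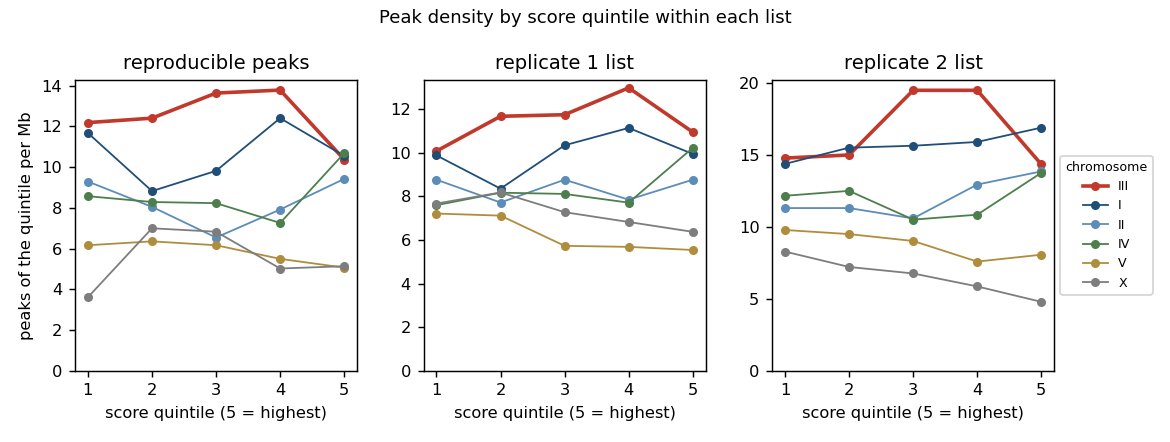
Peaks per Mb (vertical axis) in each score quintile, from the lowest to the highest (horizontal axis), with 1 line for each chromosome, for the reproducible peaks and the list of each replicate. The line of III is highest in the middle quintiles and falls at the fifth, where it meets those of I and IV among the reproducible peaks at 10.4, 10.5 and 10.7 per Mb.

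Stated as shares, 143 of the 860 reproducible peaks of III were in the highest quintile (16.6%, 14.3% to 19.3%), against 20.9% elsewhere (19.5% to 22.3%). In replicate 2 the share was 17.3% (15.2% to 19.6%), against 20.7% elsewhere (19.5% to 21.9%). In replicate 1 it was 19.1% (16.5% to 21.9%), against 20.2% elsewhere (18.9% to 21.6%). The intervals overlap in both replicate lists, in replicate 2 only at their edges. Over every whole-series peak, which adds the peaks of single replicates and of neither, the order was the other way, with 23.2% of the peaks of III in the highest quintile (21.4% to 25.002%), against 19.3% elsewhere (18.5% to 20.1%). The choice of peak set thus turned the direction of this comparison. At the maximum score of 163.35 III had 27 reproducible peaks, 3.14% of its peaks (2.17% to 4.53%), against 4.15% over all chromosomes, or 1.96 per Mb, against 2.57 per Mb on IV, 1.90 on II and 1.86 on I.

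The placing of the strong sites of III depended on where strong began. Of the 27 peaks of maximum score 12 lay in the left arm, 9 in the centre and 6 in the right arm, or 3.48, 1.31 and 1.74 per Mb, while the reproducible peaks as a whole were evenly divided. The counts in the same order were 12, 7 and 9 on I, 9, 8 and 12 on II and 10, 17 and 18 on IV. On V they were 7, 15 and 4, and on X 4, 8 and 5. In the highest quintile the left arm of III had the lowest share of its regions instead, with 31 of its 212 peaks (14.6%), against 78 of 432 (18.1%) in the centre and 34 of 216 (15.7%) in the right arm. No maximum-score peak lay from 7209071 to 9629727, a stretch of 2.42 Mb in the centre. That stretch was not poor in sites: it had 140 reproducible peaks, 57.8 per Mb, of which 25 were in the highest quintile, and its highest score was 161.95. Stretches without a maximum-score peak were longer on II, V and X, up to 3.84 Mb on V. All 27 peaks were in the highest quintile of both replicate lists. Those lists are of the same series, and the share of the other reproducible peaks in these quintiles was not counted. A reproducible neighbour within 2000 bp was found for 13 of the 27. Among all reproducible peaks 57.6% had one on III and 51.5% over all chromosomes, so the maximum-score peaks did not stand out by this. The widths of the 27 ran from 709 to 3932 bp, with a median of 1404 bp.

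By width among these tied peaks, the first of the named sites were those from 7178537 to 7182468 (3932 bp) in the centre and from 424421 to 428062 (3642 bp) in the left arm, both at 3100 in each replicate. The next was from 9629728 to 9631777 (2050 bp), with scores of 3097.58 in replicate 1 and 2773.46 in replicate 2, followed by that from 1418195 to 1420177 (1983 bp), with 3003.93 and 3100. The site from 7207246 to 7209070 (1825 bp) stood close to the first. The others of the 10 were from 793329 to 795152, from 3067771 to 3069460, from 85987 to 87643, from 4751903 to 4753543 and from 12452612 to 12454243, between 1632 and 1824 bp wide. Only the last of the 10 was in the right arm, where the next by width were from 10820192 to 10821595 (1404 bp) and from 11159977 to 11161282 (1306 bp). The lowest replicate score among the 10 was that from 3067771 to 3069460, with 1831.36 in replicate 1, the 85.8th percentile of that list.

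Scores within III ranked differently by region in the replicates. The median percentile of the reproducible peaks was 52.9 in the left arm, 52.4 in the centre and 45.4 in the right arm. In the replicate 1 list it was 53.4, 53.6 and 45.9, and in the replicate 2 list 44.0, 56.1 and 46.4. The right arm was below the centre in both, whereas the left arm was level with the centre in replicate 1 only. At the reproducible sites of III the scores of the replicates had a Spearman rho of 0.47 (860 peaks, several of which can share a replicate peak), against 0.46 on I and 0.64 on X, the lowest and the highest of the other chromosomes. The score percentiles of neighbouring reproducible peaks had a Spearman rho of 0.07 on III (859 pairs), and between -0.04 and 0.08 on the other chromosomes.

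The weaker peaks of III lay a little closer to its reproducible ones. Of the 1256 peaks that were not reproducible 407 were within 2000 bp of a reproducible peak (32.4%, 29.9% to 35.0%), against 27.4% elsewhere (26.3% to 28.6%). On I the share was 30.7%, within the interval of III. The median distance was 4640 bp on III and 6201 bp elsewhere, and III also has more reproducible peaks to be near.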

How the data were processed

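Per the submitters' processing notes, the authors aligned reads to ce10 using BWA, and peaks were called with MACS in each replicate and with MACS v2 for the whole series, per the file headers and source columns. The sources used here give no version, control or threshold, and do not say whether reads were pooled for the whole-series list. Each deposited peak has a start and an end, in WormBase WS220 per the file headers, and a score that the authors' caller wrote. Read counts were not analysed here. Library depth is therefore unknown, and no ChIP value was set against input.

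Reproducible peaks were whole-series peaks overlapped by at least 1 bp by a peak of each replicate. Chromosome lengths were set to the end of the last peak over the 3 lists. A peak was placed by its centre, and quintiles were cut within each list with ties kept in file order. Shares have 95% Wilson intervals. The named sites were, among reproducible peaks of III, the 10 of highest score (ties by width) and the 3 highest in each arm and the centre, the 5 widest, the 10 longest gaps, the 5 densest and 3 emptiest bins, the 5 largest clusters (ties by span) and the outermost peaks. The fourth empty bin and the stretch without a maximum-score peak were named after their values were seen. The sites and measures were chosen with earlier results of these data known. Functions were tested on 2116 simulated peaks, where 8 of 8 checks returned the planted value. Peaks were not assigned to genes, since the available gene table is built on WBcel235. Python 3.11.15, numpy 2.4.6, pandas 2.3.3, scipy 1.17.1 and matplotlib 3.10.9 were used.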

Additional observations from a re-analysis of the deposited data

How the results depend on the processing

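Chromosome III was the densest chromosome and had the shortest median gap in each of the 7 peak sets tried. These sets come from the same series in which III was chosen as the densest, so they are no independent support. Of 58 alternative values for 9 measures of III, 26 stayed within 1 SD of the replicate lists. That SD comes from 2 values, which are themselves among the alternatives, so the count is no measure of stability. Each replicate list was also used alone, in place of the reproducible peaks. This gave densities of 57.5 to 83.2 per Mb, density ratios of 1.45 to 1.55 and median gaps of 4406 to 7670 bp. Median widths were 683 to 1302.5 bp, arm shares 46.8% to 49.7%, and ratios in the highest quintile 1.29 to 1.37. Clustered shares were 43.2% to 54.2% and bin dispersions 1.65 to 1.87. Each replicate list is a separate peak call, so a lost replicate and a changed list cannot be told apart in these values. With the whole-series peaks kept and 1 replicate left out, 55.7% to 59.9% of them were in the remaining replicate. The cause of these shifts was not tested. With every whole-series peak the values were 153.5 per Mb, a density ratio of 1.42, a gap of 2062 bp, a ratio of 1.70 in the highest quintile, 71.2% clustered and a dispersion of 2.95. With the higher 50% of scores 49.5% were clustered, the dispersion was 2.20 and 68.4% were reproducible. Merging peaks within 500 bp gave a density ratio of 1.55 and a gap of 9839.5 bp. Against the other 4 autosomes the density ratio was 1.53 and that of the highest quintile 1.20. Chosen after seeing the data, 2 further comparisons gave 1.54 with overlapping peaks of the 3 lists joined and 1.17 against I alone. The highest 10% of scores gave a ratio of 1.17. By construction, arms of about 33% and of 10% held 67.9% and 19.7% of the peaks, and neighbours within 1000 and 5000 bp made 49.5% and 71.0% clustered. Bins of 50 kb gave a dispersion of 2.26. No paired analysis was possible because the only groups with shared replicate numbers are ChIP and input, and input was not analysed here. Depth is unknown, so whether sites seen in 1 replicate lacked signal or reads in the other cannot be told apart.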
